A study of Mus musculus with 6 samples.

Results

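The 10 genes described here are hepatocyte genes whose expression depends on the position of the cell in the liver lobule, and they were looked up among the 39179 gene identifiers counted in 6 primary mouse osteosarcomas. The pericentral genes, used near the central vein, were *Glul*, *Oat*, *Rhbg* and *Gulo* (4 genes). The periportal genes, used near the portal vein, were *Hal*, *Sds*, *Gls2*, *Cps1*, *Pck1* and *Ass1* (6 genes). All 10 had an entry in the count table. They were picked after liver transcripts had been seen in tumor No364, so their high counts in that tumor, and any difference between genotypes that rests on it, are a description and were not tested as a finding.

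RNA was extracted from osteosarcomas of mice of mixed C57BL/6, 129/Sv and FVB background, all of them carrying the mutated *Nf2* allele written Nf2Δ2/+. The *Cd44*+/+ tumors were No244, No316 and No368, and the *Cd44*-/- tumors were No203, No279 and No364. No ages are given in the sources used here. The labels call the samples osteosarcoma tissue, while the labels' extraction text speaks of cell lines, and the study's methods name tissues. Each tumor is a bulk sample, so fewer cells of a type and less RNA per cell cannot be told apart.

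Library totals ran from 18076388 to 26954142 counts. Counts of No316 and No368 fell within the 95% sampling range of each other for 87.2% of 16671 genes, against 15.7% to 24.1% in the other pairs of tumors. These 2 libraries were therefore counted as 1 sample in every mean and SD of CPM by genotype. *Cd44* was at 137.3 to 243.6 CPM (the usual read count relative to library size, here with library sizes scaled by the TMM method) in *Cd44*+/+ tumors, at 15.8 and 19.2 CPM in No279 and No203, and at 61.8 CPM in No364. The mitochondrial share of counts was 55.2% in No244 and 5.94% to 12.5% elsewhere. Osteoblast markers, which define the labelled tissue, summed to 12080 to 35760 CPM in 5 tumors and to 800 CPM in No364, where *Sp7*, the osteoblast transcription factor, was counted 6 times. No279 was low in *Sp7*, *Ibsp*, *Bglap* and *Alpl* as well, and *Col1a1* made up 11990 of its 12080 CPM. *Ibsp* was at 3.27 CPM in No279 and 2.25 in No364, against 640.1 to 4820 in the other 4 tumors, *Bglap* was at 4.79 and 6.803 CPM against 269 to 3481, and *Alpl* was at 7.16 and 19.6 CPM against 481 to 718.5. *Sp7* was counted 120 times in No279 and 2287 to 8402 times in those 4 tumors. Counts of 4 Y-linked genes summed to 1333 in No279, 1329 in No364 and at most 39 elsewhere, so that these tumors also differed in this respect from the rest.

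Hepatocytes along the path of blood from the portal to the central vein divide the work of the liver. Periportal cells run the urea cycle, gluconeogenesis and the breakdown of several amino acids. Pericentral cells capture the ammonia that escapes and fix it into glutamine, and their gene program depends on Wnt signals from the central vein acting through the TCF/LEF factors.

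Promoters are shown for members of both ends of the lobule that had an entry in the RefSeq promoter table (GRCm38.p6), each with 250 bases before and 50 bases after the annotated start. Of the 10 genes, 5 had an entry (*Glul*, *Oat*, *Hal*, *Pck1* and *Ass1*). *Rhbg*, *Gulo*, *Sds*, *Gls2* and *Cps1* did not. The *Glul* promoter at chr1:153899679-153899978 (+ strand) held none of the 4 motifs searched. The *Hal* promoter is at chr10:93488518-93488817, the *Pck1* promoter at chr2:173152823-173153122 and the *Ass1* promoter at chr2:31470020-31470319, all on the + strand. Capitals mark the motif found in each, and the sequence is the + strand read 5′ to 3′.
Glul: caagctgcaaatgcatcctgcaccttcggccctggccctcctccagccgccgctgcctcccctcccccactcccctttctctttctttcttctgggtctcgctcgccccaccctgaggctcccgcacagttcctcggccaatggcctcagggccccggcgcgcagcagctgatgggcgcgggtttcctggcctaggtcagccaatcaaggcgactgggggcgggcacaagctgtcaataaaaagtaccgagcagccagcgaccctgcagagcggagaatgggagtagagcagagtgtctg
Hal: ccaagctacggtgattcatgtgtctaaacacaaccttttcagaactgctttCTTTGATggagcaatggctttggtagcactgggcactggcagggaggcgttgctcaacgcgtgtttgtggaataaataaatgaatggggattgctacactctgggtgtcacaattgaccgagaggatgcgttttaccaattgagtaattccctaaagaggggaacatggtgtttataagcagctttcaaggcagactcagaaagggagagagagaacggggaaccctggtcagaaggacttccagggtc
Pck1: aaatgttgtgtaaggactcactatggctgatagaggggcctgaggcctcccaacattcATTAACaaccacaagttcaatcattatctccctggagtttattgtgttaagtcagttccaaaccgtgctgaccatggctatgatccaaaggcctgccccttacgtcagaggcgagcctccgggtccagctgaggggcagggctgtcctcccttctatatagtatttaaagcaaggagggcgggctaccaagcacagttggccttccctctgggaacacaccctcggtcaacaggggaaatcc
Ass1: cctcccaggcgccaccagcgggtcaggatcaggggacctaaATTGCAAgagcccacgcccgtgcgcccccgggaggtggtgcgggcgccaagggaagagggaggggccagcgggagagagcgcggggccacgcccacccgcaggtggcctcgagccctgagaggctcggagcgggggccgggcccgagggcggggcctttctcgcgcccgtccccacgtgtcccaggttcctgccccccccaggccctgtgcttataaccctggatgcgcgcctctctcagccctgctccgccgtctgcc

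Both strands were searched for CTTTGAT (a TCF/LEF core), CAAAGTC (an HNF4 motif part), GTTAAT (an HNF1 motif part) and TTGCAAT (a C/EBP motif part). The TCF/LEF letters were in the *Hal* promoter, and in 3.73% of 32851 promoters of the same length. The HNF1 letters were in the *Pck1* promoter on the opposite strand, where the printed strand shows their reverse complement, and in 7.1% of all promoters. The C/EBP letters were in the *Ass1* promoter, also on the opposite strand, and in 2.22% of all promoters. HNF4 letters, present in 4.44% of all promoters, were in none of the 5. The *Glul* and *Oat* windows held none of the 4. The match is a description of these windows and no measure of binding, and the GC content of the 4 promoters printed ran from 47.7% for *Hal* to 74.0% for *Ass1*.

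In No364, the 10 genes together took 250712 counts, 0.93% of the library. In the other 5 tumors they took 2520 to 9613 counts, 0.0119% to 0.0392%. Every member had its highest level in No364, and the genes of both ends of the lobule were high in the same tumor. Among all 16839 genes that passed the low-count filter, 25.0% were highest in No364. *Gulo* did not pass that filter, and the other 9 members did. No364 exceeded the median of the other 5 tumors by 24.0-fold to 4110-fold in the pericentral genes, with a median of 103-fold, and by 12.8-fold to 2300-fold in the periportal genes, with a median of 138-fold. These ranges overlapped, so neither end of the lobule stood out by the size of the excess.

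**Figure D1:**
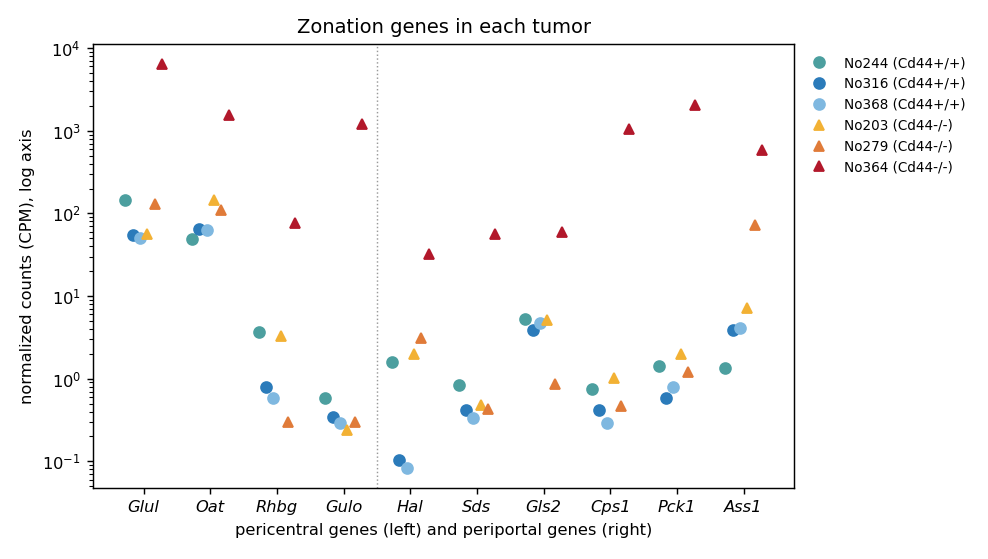
CPM of each member in each tumor, on a log axis, with *Cd44*+/+ and *Cd44*-/- tumors marked. All 10 genes were highest in No364, from 32.2 CPM for *Hal* to 6401 CPM for *Glul*.

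Among the pericentral genes, *Glul* encodes glutamine synthetase, which makes glutamine from ammonia and glutamate. It lies on chromosome 1 of GRCm38 from 153899944 to 153909723 and overlaps *Mir8114* and, on the other strand, *Teddm2*. Among *Cd44*+/+ tumors *Glul* was at 147 CPM in No244 but 54.6 in No316 and 49.9 in No368. Among *Cd44*-/- tumors it was at 57.0 CPM in No203, at 129 CPM in No279 and at 6401 CPM in No364. Without No364 the genotypes overlapped, with a *Cd44*+/+ mean of 99.5 ± 66.7 CPM (SD, n = 2) and a *Cd44*-/- mean of 93.0 ± 50.9 CPM (SD, n = 2). *Glul* is also used by muscle, and summed muscle markers stood at 14610 CPM in No244, the second highest tumor for *Glul*, against 79.9 CPM in No279, the third highest. The part of muscle in the *Glul* counts was not tested.

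*Oat* encodes ornithine aminotransferase, which links ornithine to glutamate and proline. It lies on chromosome 7 from 132557478 to 132576398 and overlaps *Fgfr2* on the same strand. *Oat* stood at 49.6 CPM in No244, at 65.3 CPM in No316 and at 63.6 CPM in No368, and the *Cd44*-/- tumors had 144 CPM in No203, 109.5 CPM in No279 and 1567 CPM in No364. All 3 *Cd44*-/- tumors were above all *Cd44*+/+ tumors. Without No364 the means were 57.0 ± 10.5 CPM in *Cd44*+/+ and 126.5 ± 24.1 CPM in *Cd44*-/- tumors (SD, n = 2 each).

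*Rhbg* encodes an ammonia transporter of the Rh family. Its identifier, ENSMUSG00000001417, was paired with the symbol through the study's own gene list, since GENCODE M21 gives the symbol to another identifier, and no position or length was used. *Rhbg* was at 3.70 CPM in No244, at 0.799 CPM in No316 and at 0.588 CPM in No368. The *Cd44*-/- tumors had 3.33 CPM in No203, 0.297 CPM in No279 and 75.6 CPM in No364. The genotypes overlapped outside No364.

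*Gulo* encodes the last enzyme of ascorbate synthesis and lies on chromosome 14 from 65986786 to 66009207. It was counted 7 times in No244, 10 times in No316, 7 times in No368, 6 times in No203, 9 times in No279 and 23322 times in No364. The last of these was 1221 CPM, whereas the other 5 tumors were at 0.238 to 0.588 CPM, close to the floor of 3 counts, which was 0.099 to 0.252 CPM. A low level in those 5 tumors is therefore known only within wide counting error.

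Among the periportal genes, *Hal* encodes histidine ammonia-lyase, which opens histidine breakdown. It lies on chromosome 10 from 93488768 to 93519304. *Hal* was counted 19 times in No244, 3 times in No316 and 2 times in No368. Counts of the *Cd44*-/- tumors were 50 for No203, 94 for No279 and 615 for No364. All 3 *Cd44*-/- tumors were above the *Cd44*+/+ tumors, and No316 and No368 were at or under the floor. In CPM the gap between the genotypes was small, at 1.60 in No244 and 1.98 in No203, and both values rest on few counts.

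*Sds* encodes serine dehydratase. It lies on chromosome 5 from 120476526 to 120483932 and overlaps *Gm15690* and *Plbd2* on the other strand. *Sds* had 10 counts in No244, 12 in No316, 8 in No368, 12 in No203 and 13 in No279, against 1084 in No364. *Gls2* encodes the liver glutaminase, which frees ammonia from glutamine next to the urea cycle. It lies on chromosome 10 from 128194457 to 128210004 and overlaps *Spryd4* on the other strand. *Gls2* was at 5.29 CPM in No244, at 3.86 CPM in No316 and at 4.66 CPM in No368, and at 5.16 CPM in No203, at 0.858 CPM in No279 and at 59.6 CPM in No364. Its excess of No364 over the median of the other tumors, 12.8-fold, was the smallest of the 10, although over the next highest tumor *Ass1* (8.11-fold), *Hal* (10.4-fold) and *Oat* (10.9-fold) were below its 11.3-fold. *Gls2* had its lowest level in No279, where 26 counts were found.

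*Cps1* encodes carbamoyl-phosphate synthetase, which feeds ammonia into the urea cycle, and lies on chromosome 1 from 67123026 to 67231259. It had 9 counts in No244, 12 in No316, 7 in No368, 26 in No203 and 14 in No279, against 20305 in No364. *Pck1* encodes the enzyme that commits carbon to gluconeogenesis and lies on chromosome 2 from 173153048 to 173159273. *Pck1* had 17 counts in No244, 17 in No316, 19 in No368, 50 in No203 and 36 in No279, against 39341 in No364. Neither gene was above 50 counts in any of the other 5 tumors, whereas No364 had 1063 CPM of *Cps1* and 2059 CPM of *Pck1*.

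*Ass1* encodes argininosuccinate synthetase of the urea cycle, an enzyme that many tissues also use to make arginine, and lies on chromosome 2 from 31470207 to 31520672. *Ass1* was at 1.34 CPM in No244, at 3.86 CPM in No316 and at 4.11 CPM in No368. In the *Cd44*-/- tumors it reached 7.22 CPM in No203, 72.3 CPM in No279 and 586.7 CPM in No364. The levels of the *Cd44*-/- tumors did not overlap those of the *Cd44*+/+ tumors. *Ass1* differed most among the 5 other tumors, 53.8-fold between No244 and No279, followed by *Hal* with 37.0-fold and *Rhbg* with 12.4-fold, whereas the other 7 differed by 2.47-fold to 6.17-fold. The lowest levels behind these folds were 2 counts of *Hal* in No368 and 9 counts of *Rhbg* in No279. Both folds are therefore known only within wide counting error.

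Placed on a scale of CPM per kilobase of exon, the order of the members in No364 was not that of any other tumor. The other 5 tumors also differed from each other in order. In No364 the order was *Glul* (1926 CPM per kb), *Oat* (664), *Pck1* (600.4), *Gulo* (539), *Ass1* (243), *Cps1* (191), *Sds* (33.5), *Gls2* (17.2) and *Hal* (5.80). In each of the other 5 tumors *Glul* and *Oat* held the first 2 places, as in No364, with *Glul* first in No244 and *Oat* first in the other 4. The last place went to *Cps1* in No244 and No279, to *Gulo* in No203 and, as in No364, to *Hal* in No316 and No368. A single library gives the No364 order, and no test of neighboring places was possible. *Rhbg* was left out because no length was used.

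The balance of both ends was read as a difference between zones within each tumor, compared over tumors. The mean log2 CPM (prior count 2) of the pericentral members minus that of the periportal members was 2.89 for No244, 2.77 for No316 and 2.59 for No368, compared with 2.17 for No203, 1.71 for No279 and 2.11 for No364. The value of No364 lay inside the range of the other tumors. Outside No364, *Gulo*, *Sds*, *Cps1* and *Hal* had counts near the floor in some or all tumors, so the prior count weighs on the means there. The balance with another prior count was computed for No364 only. The *Cd44*-/- tumors were all below the *Cd44*+/+ tumors, and this difference is a description of genes picked on these samples. Single pairs of genes showed no common balance. The ratio per kilobase of *Glul* over *Cps1* was 10.1 in No364 and 92.4 to 466 in the other tumors, whereas that of *Gulo* over *Cps1* was 2.82 in No364 and 0.566 to 2.46 in the rest.

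**Figure D2:**
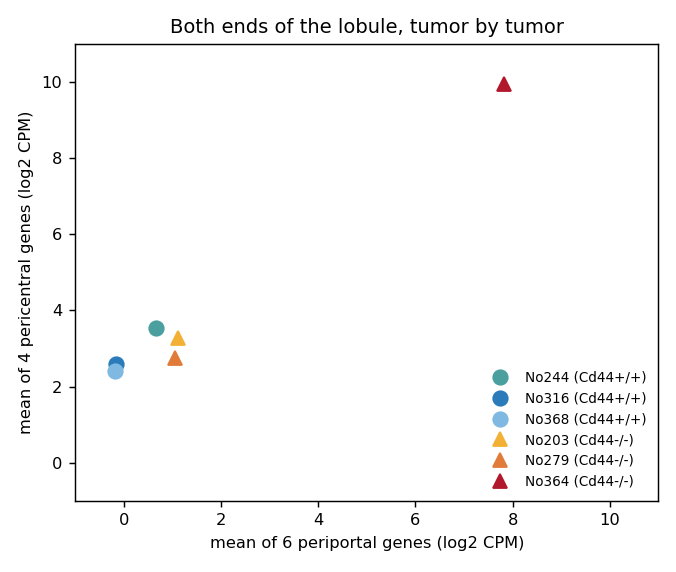
Mean log2 CPM (prior count 2) of the 4 pericentral members against that of the 6 periportal members, with a point for each tumor. No364 stood at 9.94 and 7.83, and the other 5 tumors lay between 2.42 and 3.55 on the pericentral axis and between -0.18 and 1.11 on the periportal axis.

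*Alb*, the most abundant hepatocyte transcript, gave a way to ask whether the members in the other tumors stood in the same proportion to *Alb* as in No364. The source of the *Alb* counts in those tumors was not tested. *Alb* was counted 1151852 times in No364 and 507 to 2505 times elsewhere. If each member had kept the ratio to *Alb* seen in No364, the count of *Cps1* in No279 would have been 18.8, and 14 were found. *Cps1* stood at 0.589 to 0.852 of the *Alb*-scaled count over the 5 tumors, *Pck1* at 0.584 to 1.10 and *Gulo* at 0.118 to 0.682. The 95% Poisson interval of the counts, which covers counting error only, held the *Alb*-scaled value in 4 of 5 tumors for *Cps1* and in 3 of 5 for *Pck1* and for *Gulo*. In the remaining tumors these 3 genes lay below it.

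The other 7 members were above the *Alb*-scaled count. Their lowest and highest ratios over the 5 tumors were 5.40 and 34.5 for *Glul*, 32.2 and 120 for *Oat*, 6.74 and 49.7 for *Rhbg*, 7.03 and 165 for *Hal*, 5.09 and 16.8 for *Sds*, 24.7 and 221 for *Gls2*, and 2.33 and 211 for *Ass1*. Of these, the interval held the *Alb*-scaled value in 1 tumor only, for *Hal*. The top value of *Ass1* came from No279. *Cps1*, *Pck1* and the pericentral gene *Gulo* thus lay near or below the proportion to *Alb* seen in No364, and the other 7 members lay above it. By value, *Cps1* and *Gulo* were below it in all 5 tumors, whereas *Pck1* reached 1.10 of it. The counting error of *Alb* itself was not included in the intervals.

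**Figure D3:**
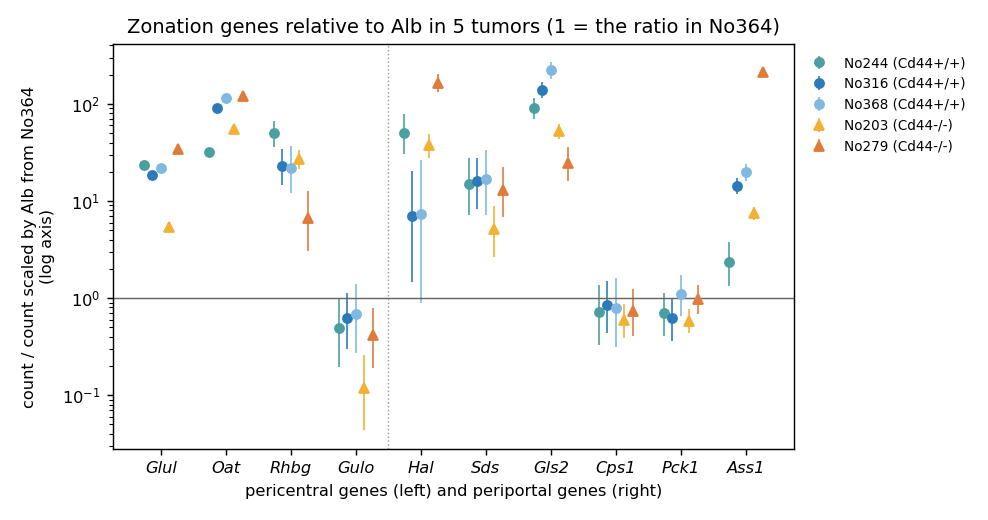
Count of each member divided by the count scaled from *Alb*, with No364 set to 1, on a log axis; bars are 95% Poisson intervals of the member's count alone. *Cps1*, *Pck1* and *Gulo* lay near or below 1 and the other 7 members above it.

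When genotypes were compared over all 6 tumors, the quasi-likelihood test of edgeR with Benjamini-Hochberg adjustment called 0 of 16839 genes (0.0% of those tested) and 0 of the 9 members tested. The smallest adjusted p over all genes was 0.452. At an unadjusted p under 0.05 stood 1810 genes, among them 7 members. The DESeq2 Wald test with default settings called 419 of 17952 genes (2.33%), and 1 of the 4 members that received an adjusted p, *Ass1*, with an adjusted p of 0.000798. The adjusted p of *Ass1* ran from 0.000224 in DESeq2 to 0.818 in edgeR over the settings tried. DESeq2 gave 6 members no adjusted p. The members were picked on these samples, so the counts describe the list and are not independent evidence of its direction.

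The edgeR log2 fold changes of *Cd44*-/- over *Cd44*+/+ tumors were above 0 for all 9 members, with a median of 4.71 against 0.107 over all genes tested. For the pericentral genes, the values were 4.71 for *Glul* (SE 1.91), 3.35 for *Oat* (SE 1.14) and 3.99 for *Rhbg* (SE 1.89). For the periportal genes, they ran from 2.25 for *Gls2* (SE 1.34) to 9.53 for *Pck1* (SE 3.18), with 6.15 for *Ass1* (SE 1.63). limma-voom gave smaller values for all of these but *Hal* (4.47 in both), with a median of 2.38 over the 9 members, 3.84 for *Pck1*, 3.58 for *Cps1*, 2.38 for *Glul*, 2.04 for *Sds* and 0.25 for *Gls2*. The SD among the *Cd44*-/- tumors exceeded their mean for every member, for example 2195 ± 3642 CPM for *Glul* (SD, n = 3).

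Without No364 the median over the 9 members tested was 0.64 against 0.0427 over all genes, and 7 of them were above 0. That fit took No316 and No368 as 2 libraries. With the pair as 1 sample, the means of *Glul* (93.0 against 99.5 CPM) and *Rhbg* (1.81 against 2.20 CPM) were lower in *Cd44*-/- tumors, so the direction of these 2 members turned. edgeR again called 0 of 17518 genes (0.0%) and 0 of the members, with a smallest adjusted p of 0.291 and with 1545 genes and 2 members at an unadjusted p under 0.05. *Glul* then stood at 0.16 (SE 0.638), *Cps1* at 0.64 (SE 0.792) and *Pck1* at 0.78 (SE 0.703). The members *Sds* and *Gls2* turned to -0.19 (SE 0.758) and -0.61 (SE 0.838). *Ass1* at 3.67 (SE 1.03) and *Hal* at 2.19 (SE 1.36) stayed furthest above 0, followed by *Oat* at 1.09 (SE 0.313).

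**Figure D4:**
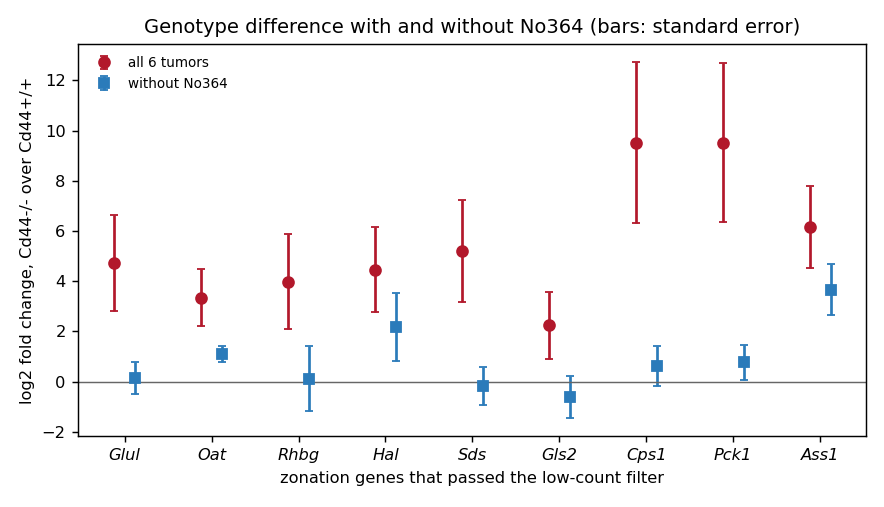
edgeR log2 fold change of *Cd44*-/- over *Cd44*+/+ tumors for the 9 members tested, with all 6 tumors and without No364, with bars of 1 standard error. Leaving out No364 moved *Glul* from 4.71 to 0.16 and *Ass1* from 6.15 to 3.67.

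Non-overlap of the genotypes was counted for the members and for all genes. Every *Cd44*-/- tumor lay above every *Cd44*+/+ tumor for 3 of the 9 tested, *Oat*, *Hal* and *Ass1*, and for 9.49% of all genes. No203 and No279 alone lay above every *Cd44*+/+ tumor for the same 3 members and for 15.0% of all genes. The gap was small for *Hal*, at 1.98 CPM in No203 (50 counts) and 1.60 CPM in No244 (19 counts). The DESeq2 test without No364, a setting chosen after the data had been seen, called 432 of 18294 genes (2.36%) and 1 of the 10 members, *Ass1*, with an adjusted p of 0.0191. With the filter on Cook's distance turned off, also chosen afterwards, DESeq2 called 1195 of 19427 genes (6.15%) and 8 of 10 members, all but *Rhbg* and *Gls2*. With No316 and No368 summed, also chosen afterwards, it called 146 of 18319 genes (0.797%) and *Ass1* alone of the 5 members that received an adjusted p.

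Other genes of known position along the lobule were high in No364 as well. Of 15 other pericentral genes, 13 were highest in No364, and of 15 other periportal genes 14 were. *Cyp2e1*, a cytochrome P450 of the pericentral zone, was at 8074 CPM in No364 and at most 5.63 CPM elsewhere. *Rgn*, *Slc1a2* and *Cyp1a2* reached 2927, 865 and 606 CPM, against at most 1.43, 0.476 and 0.504 CPM in the other tumors. On the periportal side, *Tat*, *Pigr* and *G6pc* reached 1721, 1178 and 1017 CPM in No364. *Ctsc*, the fourth by level, was the exception, at 70.8 CPM in No364 and 236 CPM in No316. The pericentral exceptions, named after their values were seen, were *Axin2* and *Tbx3*. These were highest in No368 and No279, at 24.1 and 26.8 CPM, against 19.8 and 22.4 CPM in No364. *Lgr5*, *Rnf43*, *Znrf3*, *Sp5*, *Nkd1* and *Notum* of the same list were highest in No364. Among these, *Lgr5* was at 29.1 CPM there against at most 0.693, and *Rnf43* at 15.8 CPM against at most 12.7.

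edgeR called 0 of the 9 tested genes of the pericentral list and 0 of the 8 of the periportal list. At an unadjusted p under 0.05 stood 4 and 5 of them, and 1810 of all 16839 genes. DESeq2 with its defaults called 0 of either list and 2.33% of all genes. It gave no adjusted p to 9 of the 15 pericentral and 12 of the 15 periportal genes. The median log2 fold change of the tested genes was 1.02 for the pericentral and 4.33 for the periportal list, and -0.05 and -0.33 without No364. The periportal list had 7 of 8 above 0 with No364 and 3 of 8 without it, and the pericentral list had 8 of 9 and 4 of 9.

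The metabolic pathways that hold the members were high in No364 as well. All 7 urea cycle genes were highest in No364, among them *Arg1* (346 CPM against 0.336 to 6.21) and *Asl* (235 CPM against 5.56 to 12.3). All 11 genes of amino acid catabolism and 5 of 6 of gluconeogenesis were highest there. The gluconeogenic exception was *Pck2*, the mitochondrial form of the enzyme, at 23.6 CPM in No364 and 231 CPM in No244. Among 10 genes of glutamine and ammonia handling, 7 were highest in No364. *Glud1*, the glutamate dehydrogenase that releases ammonia, was at 1685 CPM against 116 to 200. The 4 genes of ascorbate synthesis were all highest in No364, although *Akr1a1* at 398 CPM lay close to the 389 CPM of No203.

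Markers of other cell types were summed for each tumor beside these results. Hepatocyte markers summed to 140700 CPM in No364 and to 80.7 to 191 CPM in the others, with all 10 highest in No364. Markers of Kupffer cells, the macrophages of the liver, were highest in No364 for 5 of 5 genes, at 126.5 CPM in sum, followed by No203 at 10.98 CPM and then at most 1.12 CPM. DESeq2 with its defaults called 4 of the 5 Kupffer genes, against 2.33% of all genes. edgeR called 0 of the 2 it tested, both of them at an unadjusted p under 0.05, as were 1810 of all 16839 genes. *Clec4f*, specific to Kupffer cells, was counted 820 times in No364 and 88 times in No203. Sinusoidal endothelial markers summed to 96.8 CPM in No364 and to 141 CPM in No279, with 3 of 5 genes highest in No364. Cholangiocyte markers summed to 33.7 CPM in No364 and 21.7 CPM in No279, with 4 of 5 highest in No364. Kidney tubule markers summed to 12.8 CPM in No364 and to at most 2.21 CPM elsewhere, with 1 of 7 genes highest in No364. Enterocyte markers summed to 97.3 CPM in No364 and to 1.22 to 19.5 CPM elsewhere, with 2 of 5 highest in No364. The defining kidney tubule genes *Umod* and *Kap* were at 0 in all tumors, and *Sis* and *Alpi* of the enterocyte list likewise. From those lists, *Lrp2* had 242 counts, *Fabp2* had 1641 and *Vil1* had 217 in No364. *Lct* had 2 counts in No364 and 518 in No316, whereas *Slc12a1* and *Aqp2* were highest in No279, with 43 and 16 counts. Adipocyte markers summed to 12.9 CPM in No364 and to 0.825 to 25.0 CPM elsewhere. Of the 5 adipocyte genes, *Adipoq*, *Plin1* and *Lep* were at 0 in No364 and *Cfd* had 5 counts, whereas *Cidec* was highest there, with 241 counts (12.6 CPM against at most 1.71). Hepatic stellate cell markers summed to 84.2 CPM in No364, the lowest of the 6 tumors. Among them *Ecm1* was at 42.1 CPM against 102 to 725.5 elsewhere, while the other 4 of the 5 genes were highest in No364. General macrophage markers also had their lowest sum there, at 259 CPM against 448 to 752, with 0 of 5 highest in No364. *Csf1r* and *Cd68* were each lowest in No364, whereas *Adgre1*, *C1qa* and *Mertk* were each lower in another tumor. *C1qa* was at 86.0 CPM in No364 and at 23.2 CPM in No244. The part of any of these cell types in the member counts was not tested.

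**Figure D5:**
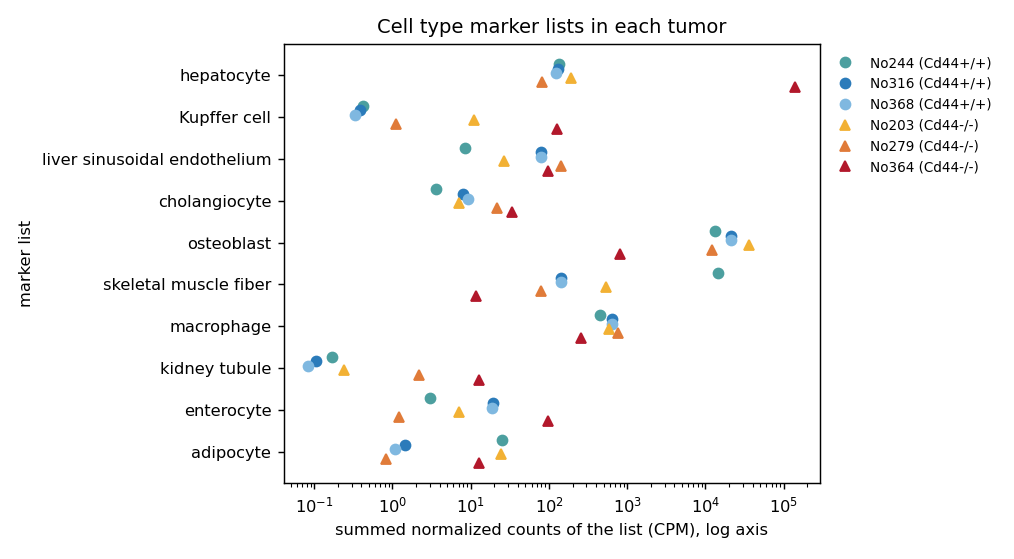
Summed CPM of marker lists in each tumor, on a log axis. The hepatocyte list stood at 140700 CPM in No364, where the osteoblast list was at 800 CPM.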

How the data were processed

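RNA of 6 osteosarcomas was sequenced. For each tumor, the authors deposited a column of unnormalized gene counts under Ensembl identifiers. By the labels and the study's methods, stranded mRNA libraries were sequenced, and the submitters' processing notes name bcl2fastq 1.8.4, HISAT2 2.0.2, featureCounts and Subread 2.0.0 and the build GRCm38. The strand setting and the treatment of reads shared by several genes are not given in the sources used here, so reads of overlapping genes may not be told apart. Symbols came from GENCODE M21 for 37607 of 39179 identifiers, and for *Rhbg* from the study's gene list.

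The members and gene lists were chosen with earlier results of these data known. Named genes were the members, *Alb*, *Cd44*, the highest genes of each list by mean level, genes at 0 throughout and the genes nearest in pattern to each member. Some genes that this rule names are not reported here. Genotypes were compared with the quasi-likelihood test of edgeR 4.0.16 (R 4.3.3, TMM factors, filterByExpr), Benjamini-Hochberg adjustment and an adjusted p threshold of 0.05. The scripts were tested on simulated data. DESeq2 1.42.0, limma-voom (limma 3.58.1), other scalings and filters, and leaving out each tumor were alternatives. The labels give each tumor its own number. No316 and No368 differed by less than sampling noise for most genes, so they may be a single library or animal. They were counted as 1 sample in each mean and SD of CPM by genotype. Unless summed, they entered the edgeR, DESeq2 and limma-voom fits as 2 libraries. The genotype difference of the zone means also took them as 2 libraries, except where stated. A detection floor of 3 counts was used.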

Additional observations from a re-analysis of the deposited data

How the results depend on the processing

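The number of genes called between genotypes stayed at 0 in every edgeR and limma-voom setting, while unadjusted p-values under 0.05 numbered 763 to 3085 when each tumor was left out in turn. With all tumors, 7 of the 9 members fitted had such a p, beside 1810 of 16839 genes. Without No203 it was 8 of 10 members and 3085 of 17574 genes, and without No279 10 of 10 and 1911 of 17502. Without No244 it was 2 of 10 members and 1929 of 17783 genes, and without No364 2 of 9 and 1545 of 17518. Without No316 it was 1 of 9 members and 763 of 17741 genes, and without No368 1 of 10 and 784 of 17693. DESeq2 called 419 genes with its defaults. In settings chosen after the data had been seen it called 1195 without the filter on Cook's distance, 432 without No364 and 146 with No316 and No368 summed. Members called numbered 0 in edgeR, and 1, 8, 1 and 1 in those DESeq2 fits. Leaving out each tumor, the log2 fold change ran from -0.19 to 5.78 for *Sds* and from -0.61 to 2.82 for *Gls2* in edgeR, and both reversed without No364 only, also in DESeq2 (-0.19 and -0.62). With No316 and No368 as 2 libraries, the genotype difference of the zone means was 2.47 (pericentral) and 3.23 (periportal) on the log2 scale. It ran from 0.16 to 3.76 and from 0.98 to 4.37 when each tumor was left out, with the lowest value without No364 in both. With the pair as 1 sample and all tumors in, the differences were 2.30 and 3.09. The pair was not taken as 1 sample when No364 was left out, so the sign of the pericentral 0.16 is not settled. Scaled by library size alone, No364 stood at 4537 CPM for *Glul*, 1111 for *Oat*, 53.6 for *Rhbg*, 865 for *Gulo*, 22.8 for *Hal*, 40.2 for *Sds*, 42.3 for *Gls2*, 753 for *Cps1*, 1460 for *Pck1* and 416 for *Ass1*. These values differ from the TMM-scaled ones by a single scaling of the No364 library, shared by all members. The TMM factor of No364 was 0.740, applied to the counts of genes that passed the low-count filter. The cause of the shifts on leaving out tumors was not tested. The share of genes of No316 and No368 within sampling range was 86.9% at a minimum of 100 counts. No paired analysis was possible because the groups share no replicate numbers. Counts near the floor limit *Gulo*, *Sds*, *Cps1* and *Hal* outside No364, and *Rhbg* in No279.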

Other observations

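Mid-lobular genes, used between the zones, were also highest in No364 in 4 of 4 cases. *Hamp*, the iron hormone hepcidin, was at 303 CPM against 0.168 to 0.674 CPM in the other tumors, and *Cyp8b1*, a bile acid enzyme, at 308 CPM against at most 0.756. *Igfbp2*, which DESeq2 called with its defaults and edgeR did not, was at 209 CPM in No364, and like *Ass1* it was next highest in No279, at 74.1 CPM, with 5.75 CPM in No203 and at most 1.34 CPM in *Cd44*+/+ tumors. Of the ligands of the central vein, *Rspo3* was at 2.83 CPM in No364, below the 52.3 and 55.9 CPM of No316 and No368, and *Wnt2* and *Wnt9b* were counted 4 and 7 times there.

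Genes near in pattern to each member over the 6 tumors, by root mean square difference of centred log2 CPM, included *Bhmt* and *Serpina1d* for *Cps1* (0.143 and 0.166) and *Bhmt* and *Apoa1* for *Pck1* (0.209 and 0.230). For *Glul* they were *Gm4673* (0.277), *Selenbp1* (0.310) and *Nudt12* (0.337), and for *Oat* they were *Acy3*, *Slc16a10* and *Shmt1* (0.206, 0.230 and 0.235). For *Ass1* the nearest gene, *Cyp26a1*, was at 0.423. Among members, *Cps1* and *Pck1* were nearest to each other (0.266), followed by *Glul* and *Sds* (0.450).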
